A study of Cavia porcellus with 34 samples.

Results

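Cadherins and protocadherins were examined in the hypothalamic paraventricular nucleus (PVN), the nucleus that drives the hypothalamic-pituitary-adrenal axis, of young female guinea pigs. Members were all genes whose symbol is CDH with a number or begins with PCDH. There were 30 such genes among the 12590 genes of the 3 generation tables together, 27 in F1 (15 cadherins, 12 protocadherins), 28 in F2 (17 and 11) and 28 in F3 (18 and 10), and 25 were in all 3. Pregnant F0 females had received 3 courses of the synthetic glucocorticoid betamethasone (sGC, 1 mg/kg) or saline (Veh). F1 offspring were exposed in utero, while F2 and F3 descend from treated F0 females through the paternal line, each generation bred with untreated females. RNA from PVN punches on postnatal day 40 was sequenced in 5 F1 Veh, 5 F1 sGC, 5 F2 Veh, 5 F2 sGC, 6 F3 Veh and 6 F3 sGC females, 1 library per animal, each library a mixture of all cell types in the punch. The comparisons ask whether exposure of the F0 pregnancy to sGC altered these genes in each generation, and whether the effect differed between generations.

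Most cadherins are calcium-dependent adhesion proteins that span the cell membrane and bind the same or a related cadherin on the neighbouring cell. Type I and type II cadherins are tied to the actin skeleton by catenins, and differences between them help cells and synapses to sort. Protocadherins bind more weakly and signal through other cytoplasmic partners. The delta protocadherins are separate genes with restricted patterns in the brain, and the clustered protocadherins are families of alternative first exons that give a neuron its surface identity.

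The values are normalized counts, divided here by a size factor per sample, and are called scaled counts below. The deposited totals were 15.57 to 21.94 M (mega) per sample in F1, 15.65 to 19.44 M in F2 and 18.69 to 18.98 M in F3. Levels are not compared between generations, which were normalized apart, or between genes, whose lengths were not used. All members passed the filter of a mean of at least 10, and CDH3 was in the F3 table alone, CDH23 and CDH24 in F2 and F3, PCDHAC1 in F1 and PCDHA5 in F1 and F2. PCDHAC1, PCDHA5 and PCDHGB5 belong to clusters whose isoforms share end exons, so their counts may hold reads of neighbouring isoforms and are uncertain.

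Markers of the labelled tissue were checked first, since the content of the punches differed between animals. All 8 measured PVN neuroendocrine markers, OXT, AVP, CRH, TRH, SST, SIM1, OTP and POU3F2, were above 0 in every library. Their summed scaled counts were 113072 to 216151 in F1 Veh and 22995 to 184736 in F1 sGC, where replicates SGM4 (22995), SGM8 (32187) and SGM20 (53702) were below all Veh animals. All 8 markers had a log2 fold change below 0 in F1 (median -0.85), and TRH passed, lower in sGC (limma, adjusted p = 0.0398, and 0.0802 on the deposited scale). SGM4 and SGM8 had the highest sums of endothelial markers (14741 and 13791, against 8628 to 10524 in Veh). They also had the highest sums of oligodendrocyte markers (70594 and 101699.9, against 33667 to 59154 in Veh). Markers of the neighbouring thalamus and zona incerta were below 0 in F1 for 7 of 10, with CBLN4 (-0.83, limma, adjusted p = 0.000917) and FOXP2 (-0.95, limma, adjusted p = 0.00971) lower in sGC, on the deposited scale too. Their sums were 14026 to 36198 in Veh, where replicate SGM15 was highest and the next was 17777, and 12197 to 15053 in sGC. Of 5 neuron markers 2 were above 0 and STMN2 passed, lower in sGC (-0.21, limma, adjusted p = 0.0197, and 0.685 on the deposited scale), with sums of 59724 to 70356 in Veh and 56083 to 73115 in sGC. Of 2 fibroblast and leptomeningeal markers PDGFRL passed, lower in sGC (-0.24, limma, adjusted p = 0.0339, and 0.58 on the deposited scale), with overlapping sums of 1462 to 1620 and 1223.0 to 1747. The part of cell content in the F1 values was not tested. The F1 members that passed or differed are also given without SGM4 and SGM8, and F1 counts without SGM20 too, comparisons chosen after the data were seen.

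In F1, 6 of the 27 members passed the threshold of 0.05 on the adjusted p-value (limma, Benjamini-Hochberg over all genes tested). CDH10, PCDHGB5, PCDH9, PCDH15 and CDH1 rose in sGC, and PCDHAC1 fell. These 6 are 22.2% of the members, beside 17.3% of all 11874 genes tested in F1. The 5 that rose compare with 8.47% of all genes and the 1 that fell with 8.86%. At an unadjusted p-value under 0.05 there were 10 members (37.0%), beside 32.9% of all genes. Of the members 20 of 27 had a log2 fold change above 0, against 50.7% of all genes. They were 11 of 12 protocadherins and 9 of 15 cadherins. With the deposited scale in place of the size factors 11 of 12 and 10 of 15 were above 0. There 0 of 27 members passed (limma, adjusted p from 0.0569 to 0.664 for the 6), beside 0.657% of all genes. The log2 fold changes there were 0.49 for CDH10, 0.59 for PCDHGB5 and 0.43 for PCDH9. They were 0.58 for PCDH15, 1.25 for CDH1 and -0.14 for PCDHAC1, beside a median of 0.066 over all genes. On that scale 7 members had an unadjusted p-value under 0.05, beside 13.6% of all genes. In these bulk libraries, fewer cells of a type and less RNA per cell cannot be told apart. Without SGM4 and SGM8, 4 of 27 members passed (14.8%), beside 13% of all genes, and these were CDH10, PCDH9, PCDHGB5 and CDH5. Without SGM20 as well, which leaves 2 sGC animals, 5 of 27 passed (18.5%), beside 8.7% of all genes, and these were CDH10, PCDH9, PCDHGB5, CDH4 (0.47, limma, adjusted p = 0.00935) and CDH6 (-0.49, limma, adjusted p = 0.0381).

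**Figure D1:**
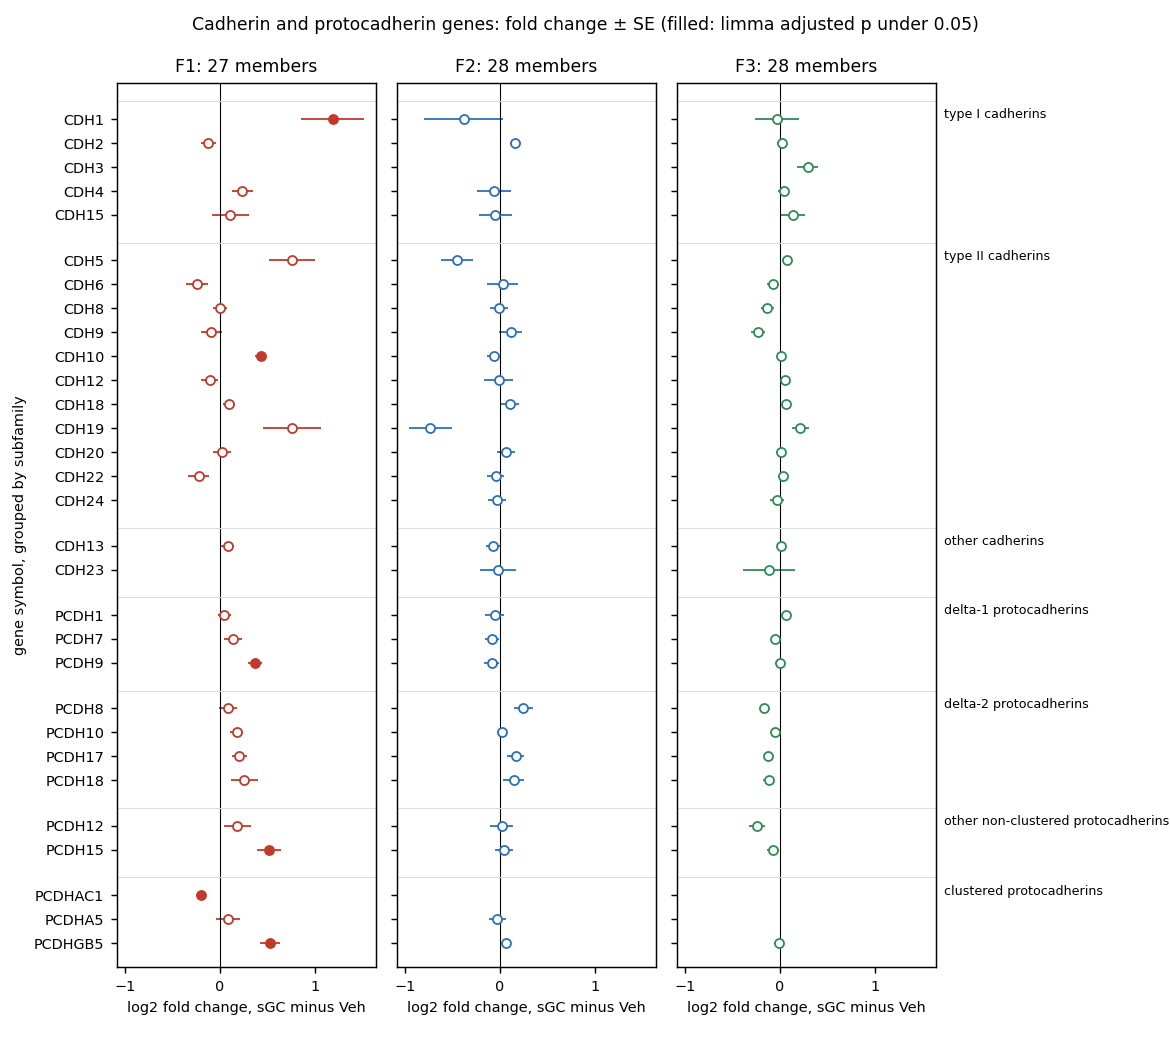
Log2 fold change of sGC against Veh with its standard error (horizontal axis) for each member (vertical axis, by subfamily) in F1, F2 and F3; filled points passed an adjusted p-value of 0.05 in limma. The 6 filled points are all in F1, and the widest bars belong to CDH1, CDH19, CDH5 and CDH23.

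CDH10 is a type II cadherin. In F1 Veh its scaled counts were 683, 685, 651, 629 and 634, and in F1 sGC they were 834, 971, 908, 803 and 903. Every sGC animal was above every Veh animal, as in 6 of 27 members (22.2%) and in 7.07% of all genes. Over both directions the groups lay apart for 14.2% of all genes. On the deposited scale the groups lay apart for 1 member alone, PCDH15 (3.7%), beside 2.04% of all genes. The mean was 657 ± 26.7 (SD, n = 5) in Veh and 884 ± 66.2 (SD, n = 5) in sGC, for a log2 difference of 0.43 (SE 0.057, limma, adjusted p = 0.00172). CDH10 kept its call without SGM4 and SGM8 (log2 fold change 0.41, limma, adjusted p = 0.00601).

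PCDH9 is a delta-1 protocadherin. Its scaled counts were 1426, 1396, 1451, 1503 and 1541 in F1 Veh and 1818, 2292, 1904, 1712 and 1736 in F1 sGC. The groups did not overlap, with SGM8 the highest animal. PCDH9 rose by a log2 fold change of 0.36 (SE 0.073, limma, adjusted p = 0.00928), and 0.28 without SGM4 and SGM8 (limma, adjusted p = 0.0104).

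PCDHGB5, of the gamma cluster, had scaled counts of 391, 413, 363, 406 and 289.8 in F1 Veh and of 590.0, 454, 541, 529 and 561 in F1 sGC. All sGC animals were again above all Veh animals. Its log2 fold change was 0.53 (SE 0.10, limma, adjusted p = 0.00837), and 0.56 without SGM4 and SGM8 (limma, adjusted p = 0.0145).

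PCDHAC1, of the alpha cluster, went the other way. Its scaled counts were 1848, 1984, 1999, 2138 and 2029.8 in F1 Veh and 1681, 1628, 1899, 1773 and 1688 in F1 sGC. The groups overlapped by 1 animal on each side, Veh replicate SGM3 and sGC replicate SGM12. The log2 fold change was -0.21 (SE 0.051, limma, adjusted p = 0.0211). The call was lost without SGM4 and SGM8 (-0.16, limma, adjusted p = 0.081) and without Veh replicate SGM11 (limma, adjusted p = 0.0582). With 1 animal left out at a time the log2 fold change ran from -0.24 to -0.18, and it was -0.12 without SGM4, SGM8 and SGM20.

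PCDH15 is a protocadherin known for the tip links of hair cells, and in brain it is also found in oligodendrocyte precursors. Its scaled counts were 198, 188, 189, 155 and 217 in F1 Veh and 292, 334, 217, 264 and 255 in F1 sGC. Veh replicate SGM19 (216.8) and sGC replicate SGM12 (217.1) nearly met, and SGM8 and SGM4 were highest. The log2 fold change was 0.52 (SE 0.12, limma, adjusted p = 0.0181). Without SGM4 and SGM8 it was 0.37 and no longer passed (limma, adjusted p = 0.0594). All 5 measured oligodendrocyte precursor markers had a log2 fold change above 0 in F1 (median 0.16), 0 of them passed (limma), and their sums were 5912 to 8274 in Veh and 6282 to 11268 in sGC. The part of precursor content in the PCDH15 values was not tested.

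**Figure D2:**
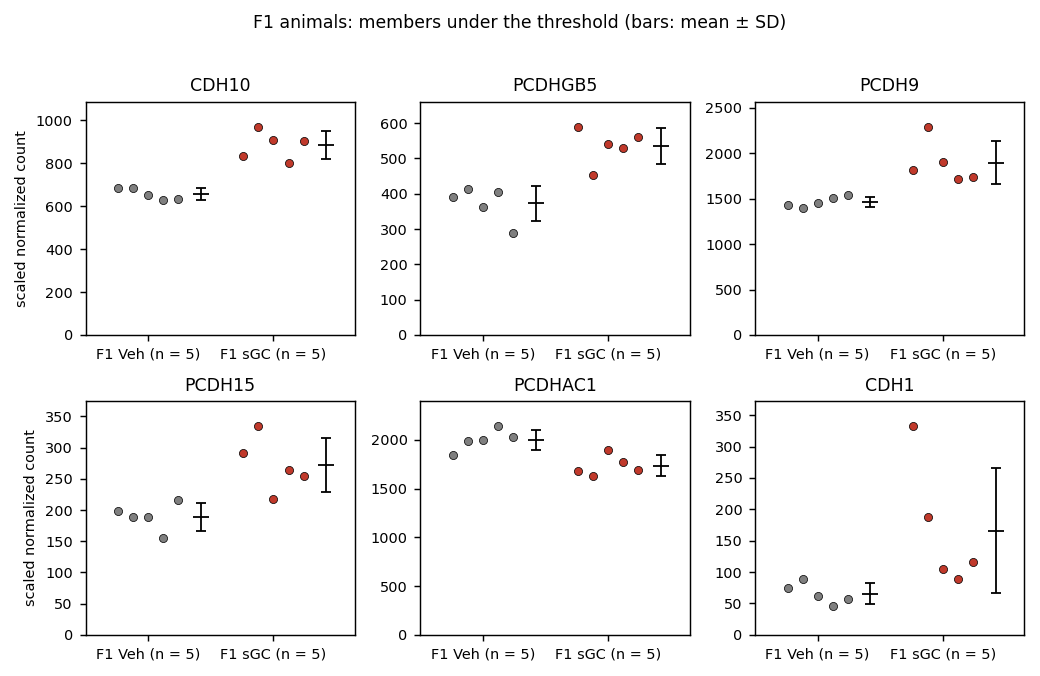
Scaled counts (vertical axis, from 0) of the 6 members that passed in F1, 1 point per animal for Veh (grey) and sGC (red), with the mean ± SD. The groups are apart in 5 panels, for CDH10, PCDHGB5, PCDH9, PCDH15 and CDH1, and overlap for PCDHAC1.

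CDH1, CDH5 and CDH19 had the largest log2 fold changes of the family in F1 and the widest spread in sGC. CDH1 is E-cadherin, the cadherin of epithelial junctions. Its scaled counts were 74.1, 89.0, 62.0, 45.2 and 57.7 in F1 Veh and 332, 189, 105, 89.5 and 116 in F1 sGC. The lowest sGC animal (89.5) stood just above the highest Veh animal (89.0), and SGM4 and SGM8 were far above the rest. Its log2 fold change was 1.19 (SE 0.33, limma, adjusted p = 0.0331). It was 0.89 without SGM4 (limma, adjusted p = 0.0391) and 0.68 without both (limma, adjusted p = 0.0576). The call was also lost without SGM8 alone (limma, adjusted p = 0.0609). So it was without Veh replicate SGM3, SGM11, SGM15 or SGM19, with 0.0763 the highest adjusted p-value in limma. With 1 animal left out at a time the log2 fold change ran from 0.89 to 1.37.

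CDH5 is VE-cadherin, the cadherin of endothelial junctions. Its scaled counts were 317, 353, 323, 307 and 337 in F1 Veh and 1130.1, 567, 376, 469.5 and 455 in F1 sGC. The groups did not overlap, and SGM4 stood far above the next animal. CDH5 did not pass at a log2 fold change of 0.76 (SE 0.24, limma, adjusted p = 0.0512). It passed without SGM4 and SGM8 at a smaller 0.40 (limma, adjusted p = 0.0188), with a filter at a mean of 50 (limma, adjusted p = 0.0488), without SGM4 alone at 0.50 (limma, adjusted p = 0.0167) and without SGM12 at 0.89 (limma, adjusted p = 0.0281).

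CDH19 is a type II cadherin of glial cells, among them those that make myelin. Its scaled counts were 107, 80.7, 107, 112 and 143 in F1 Veh and 351, 287, 124, 140.0 and 119 in F1 sGC. Only SGM4 and SGM8 lay above all Veh animals, and the other 3 were within the Veh range. The log2 fold change was 0.76 (SE 0.30, limma, adjusted p = 0.109), and 0.23 without those 2 animals (limma, adjusted p = 0.355). The paper, with edgeR and a false discovery rate under 0.05, lists Cdh19 among the genes it called in both F1 and F2.

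Markers of vascular and glial cells were read beside these 3 genes. Of the endothelial markers 9 of 10 had a log2 fold change above 0 in F1 (median 0.28), and their sums were 8628 to 10524 in Veh and 8834 to 14741 in sGC. Of the oligodendrocyte markers 10 of 10 were above 0 (median 0.28), with sums of 33667 to 59154 in Veh and 37488 to 101699.9 in sGC. All 4 measured pericyte and smooth muscle markers were above 0 (median 0.18), with sums of 3577 to 4043 in Veh and 3996 to 12379 in sGC, where SGM4 was highest. For these first 3 lists 0 markers passed in F1 (limma), and none was at 0 in any library. Of the microglia markers 4 of 7 were above 0 and CX3CR1 passed, higher in sGC (0.25, limma, adjusted p = 0.0496, and 0.322 on the deposited scale). Without SGM4 and SGM8 its log2 fold change was 0.21 and did not pass (limma, adjusted p = 0.139). Microglia sums were 3711 to 4016 in Veh and 3784 to 6594 in sGC, where SGM4 was highest. Of the ependyma and choroid plexus markers 3 of 6 were above 0 (median -0.03), with overlapping sums of 5719 to 6735 and 5359 to 7306. Within that list TTR, the carrier protein of choroid plexus, was 0.0 to 17.5 in F1 Veh and 318, 54.1, 0.0, 44.8 and 542 in F1 sGC. The part of cell content in the CDH1, CDH5 and CDH19 values was not tested.

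**Figure D3:**
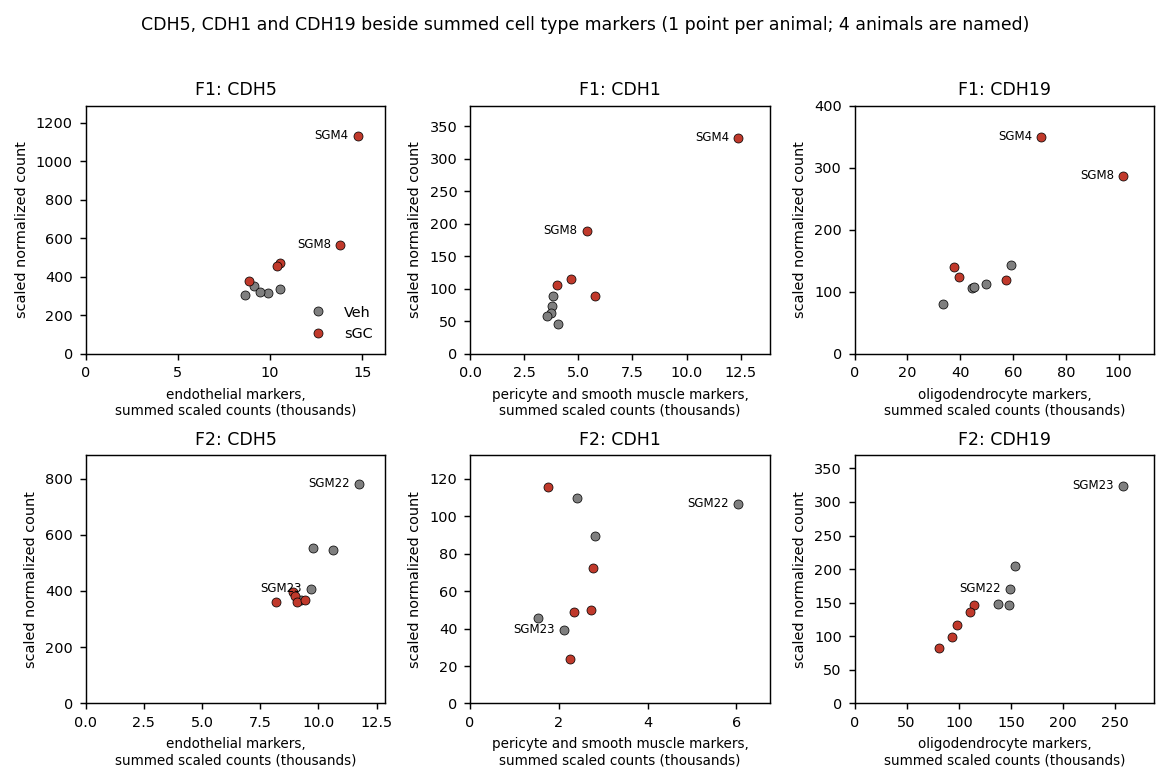
Scaled counts of CDH5, CDH1 and CDH19 (vertical axes) against the summed scaled counts of endothelial, pericyte and smooth muscle, and oligodendrocyte markers (horizontal axes), 1 point per animal, Veh grey and sGC red, for F1 (top) and F2 (bottom). In F1 the sGC animal SGM4 has the highest value of all 3 genes and the highest endothelial and pericyte and smooth muscle sums, SGM8 the highest oligodendrocyte sum (101699.9), and in F2 the Veh animals SGM22 (CDH5 781) and SGM23 (CDH19 324) have the highest values of these genes.

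The other 19 F1 members had log2 fold changes from -0.24 to 0.26, and 0 of them passed (limma), though 2 had an unadjusted p-value under 0.05. Those 2 were delta-2 protocadherins, which take part in axon growth and synapse removal, PCDH10 (0.17, limma, adjusted p = 0.0922) and PCDH17 (0.20, limma, adjusted p = 0.104). Without SGM4 and SGM8 their log2 fold changes were 0.14 and 0.21 (limma, adjusted p = 0.253 and 0.156). All 4 delta-2 members had a log2 fold change above 0 in F1, also on the deposited scale. Type II cadherins were mixed, with 5 of 10 above 0. CDH6 (-0.24, limma, adjusted p = 0.181) and CDH22 (-0.23, limma, adjusted p = 0.189) had the lowest values. CDH2, the N-cadherin of neurons and glia, had 5165, 5362, 5043, 5435 and 4477 in Veh and 4019, 4508, 5387, 5005 and 4538 in sGC, with overlapping groups. Its mean was 5096 ± 379.7 (SD, n = 5) in Veh and 4691 ± 522 (SD, n = 5) in sGC (log2 fold change -0.12, limma, adjusted p = 0.303). Among other members, CDH4 had a log2 fold change of 0.24, CDH13 of 0.08, CDH18 of 0.09, CDH8 of -0.00, PCDH1 of 0.05, PCDH7 of 0.14, PCDH12 of 0.18 and PCDHA5 of 0.08.

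In F2, 0 of 28 members passed (limma, adjusted p), as did 0% of all 11965 genes. The paper, with edgeR and a false discovery rate under 0.05, did call genes in F2, Cdh19 among them. Unadjusted p-values under 0.05 were found for 4 members, 14.3% beside 12.8% of all genes. They were CDH19 (log2 fold change -0.73, limma, adjusted p = 0.222), CDH5 (-0.45, limma, adjusted p = 0.293), CDH2 (0.16, limma, adjusted p = 0.301) and PCDH8 (0.25, limma, adjusted p = 0.349). In 0 members did the groups lie apart, against 3.21% of all genes, and on the deposited scale in 1, CDH19, against 2.4%. Of the members 12 of 28 had a log2 fold change above 0 (6 of 28 on the deposited scale), against 49.2% of all genes. On the deposited scale 0 members passed too (limma), as did 0% of all genes, and 2 had an unadjusted p-value under 0.05, beside 11.7% of all genes. CDH23, a cadherin of hair cell tip links, averaged 169 in Veh and 168 in sGC.

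CDH19 had scaled counts of 169.7, 324, 147, 148 and 204 in F2 Veh and of 99.2, 82.1, 147, 116 and 136 in F2 sGC. Veh replicate SGM23 was highest, and sGC replicate SGM25 (146.6) met the lowest Veh animal, SGM27 (146.5). CDH5 had 781, 406, 551, 369 and 548 in F2 Veh and 359, 398, 383, 362 and 368 in F2 sGC. The sGC animals were close together, 3 of 5 below the lowest Veh animal, SGM28 (368.6), and SGM22 was highest. CDH1 had 107, 39.3, 109.9, 45.9 and 89.5 in Veh and 116, 49, 23.5, 50.2 and 72.3 in sGC, for a log2 difference of -0.38 (limma, adjusted p = 0.788). CDH2 had 3759, 4489.7, 4122, 4465 and 4123 in Veh and 4926, 4916, 4701, 4644 and 4221 in sGC. All 5 sGC animals were above the Veh mean for CDH2, and 0 of 5 were for CDH19 and CDH5.

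Markers of the same cell types were read in F2 as well. All 11 oligodendrocyte markers had a log2 fold change below 0 (median -0.71), with sums of 137116 to 257415 in Veh and 80902 to 114901 in sGC that did not overlap, SGM23 being the highest. All 6 oligodendrocyte precursor markers were below 0 (median -0.38), with sums of 10544 to 15522 and 8158 to 9581. Of the endothelial markers 9 of 10 were below 0 (median -0.22; 10 of 10 on the deposited scale), with sums of 9239 to 11743 in Veh and 8192 to 9413 in sGC, SGM22 being the highest. All 8 PVN markers were above 0 in F2 (median 0.38, 5 at an unadjusted p-value under 0.05), with overlapping sums of 58543 to 110212 and 84886 to 202688. Ependyma and choroid plexus sums were 5356 to 5817 in Veh and 6089 to 7355 in sGC and did not overlap. Pericyte and smooth muscle sums were 1540 to 6028 in Veh, where SGM22 was highest and the next was 2811, and 1748 to 2764 in sGC. All 4 of those markers were below 0 (median -0.13). So were all 6 microglia (median -0.11) and all 5 neuron markers (median -0.13), while 6 of 7 astrocyte markers were above 0 (median 0.10), each list with overlapping sums. None of these lists had a marker that passed in limma, and their part in the CDH19 and CDH5 values was not tested.

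Of the other members called in F1, the F2 table held 4, with log2 fold changes of -0.06 for CDH10, -0.09 for PCDH9, 0.04 for PCDH15 and 0.06 for PCDHGB5 and standard errors of 0.058 to 0.096. The scaled counts of CDH10 were 769, 787, 865, 818 and 819.8 in F2 Veh and 883, 706, 781, 855 and 685 in F2 sGC. PCDH9 had 1389, 1839, 1581, 1759 and 1656 in Veh and 1576, 1419, 1727, 1489 and 1510.4 in sGC. For both genes the sGC animals lay on either side of the Veh mean. PCDHGB5 had 471, 472, 456, 437 and 428 in Veh and 447, 453, 456, 513 and 496 in sGC. PCDH15 had 198, 226, 214, 231 and 245 in Veh and 245, 198, 262, 239 and 204 in sGC. These groups overlapped as well.

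In F3, 0 of 28 members passed (limma, adjusted p), beside 0.0421% of all 11866 genes, which is 5 genes. At an unadjusted p-value under 0.05 there were 6 members, 21.4% beside 13.2% of all genes. They were the delta-2 protocadherins PCDH17 and PCDH8, the type II cadherins CDH9 and CDH19, PCDH12 of vascular endothelium, and CDH3, the P-cadherin. Of the protocadherins 9 of 10 had a log2 fold change below 0, and of the cadherins 6 of 18 (5 of 18 with quantile normalization), while 49.9% of all genes were above 0. On the deposited scale 0 members passed (limma), beside 0.0506% of all genes, and 6 had an unadjusted p-value under 0.05, beside 13.1% of all genes. In 0 members did the F3 groups lie apart, against 1.26% of all genes. All 5 neuron markers were below 0 in F3 (median -0.075), with overlapping sums of 60597 to 67349 in Veh and 58776 to 63295 in sGC. Of the pericyte and smooth muscle markers 5 of 7 were above 0, with overlapping sums of 5696 to 6337 and 6184 to 7095. In these 2 lists 0 markers passed (limma), and their part in the F3 values was not tested.

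PCDH17 ran from 6095 (median 6342) to 6522 in F3 Veh and from 5448 (median 5865) to 6104 in F3 sGC. Only sGC replicate SGM2 (6104) exceeded the lowest Veh animal, SGM14 (6095). The log2 fold change was -0.12 (SE 0.029, limma, adjusted p = 0.115). PCDH8 ran from 832 (median 935) to 1025 in Veh and from 793 (median 831) to 852 in sGC, for a log2 difference of -0.16 (limma, adjusted p = 0.135). For both genes 0 of 6 sGC animals were above the Veh mean. CDH9 (-0.23, limma, adjusted p = 0.235) and PCDH12 (-0.24, limma, adjusted p = 0.251) were below the Veh mean in 6 of 6 sGC animals too. CDH3 (0.29, limma, adjusted p = 0.273) and CDH19 (0.22, limma, adjusted p = 0.337) were above it in 5 of 6.

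The 4 delta-2 members, PCDH8, PCDH10, PCDH17 and PCDH18, were all above 0 in F1 and F2 and all below 0 in F3, except that PCDH10 was below 0 in F2 on the deposited scale. Their median log2 fold change was 0.19 in F1, 0.16 in F2 (0.08 without sGC replicate SGM21 and also on the deposited scale) and -0.12 in F3, and 0 of the 4 passed in any generation (limma), with unadjusted p-values under 0.05 for 2 in F1, 1 in F2 and 2 in F3. In F2, sGC replicate SGM21 was the highest sGC animal for all 4. PCDH10 had an F2 log2 fold change of 0.02, which turned to -0.02 without SGM21 and to -0.01 without Veh replicate SGM22. PCDH17 had 3965, 4188, 4432, 4531 and 4683 in F2 Veh and 5963, 4759, 4054, 5130.2 and 4717 in F2 sGC. PCDH10 had 3109, 3406, 3378, 3395 and 3408 in F2 Veh and 3736, 3218, 3187, 3521 and 3253 in F2 sGC. The F2 groups overlapped for both.

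**Figure D4:**
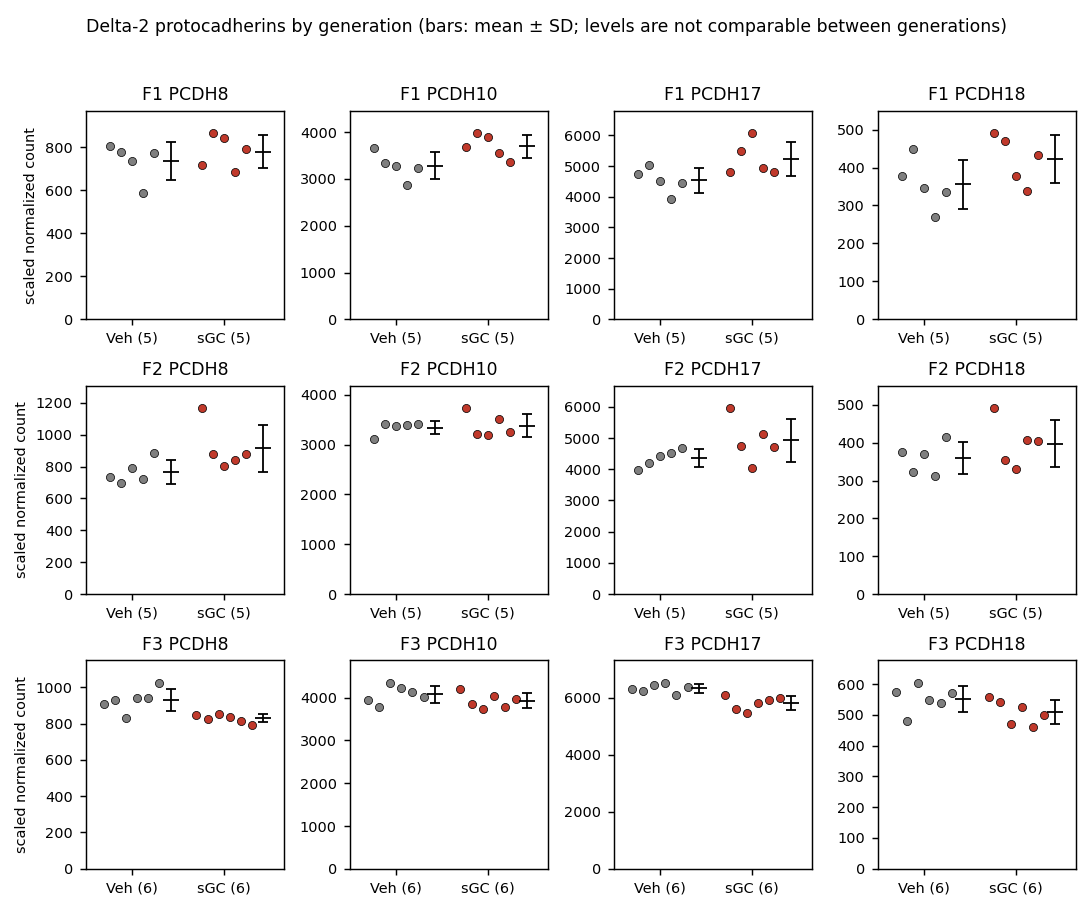
Scaled counts (vertical axes, from 0) of PCDH8, PCDH10, PCDH17 and PCDH18 in F1, F2 and F3 (rows), 1 point per animal with the mean ± SD, Veh grey and sGC red. The sGC mean is above the Veh mean in the F1 and F2 panels and below it in the F3 panels, by log2 fold changes of at most 0.26 in size, and all groups overlap.

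Of the 6 F3 sGC animals, 2 were sequenced only in a second batch. That batch also held repeat libraries of Veh animals SGM5 and SGM9, which were not used here, so all Veh libraries analysed are of the first batch. Within the first batch alone, 6 Veh and 4 sGC, 0 of 28 members passed (limma), and so it was with the batch as a covariate. The members called in F1 had F3 log2 fold changes of 0.01 for CDH10, -0.00 for PCDH9, -0.07 for PCDH15, -0.01 for PCDHGB5 and -0.03 for CDH1. CDH10 ran from 758 (median 808) to 868 in F3 Veh and from 765 (median 803) to 864 in F3 sGC. PCDH9 ran from 1629.6 (median 1737) to 1815 and from 1548 (median 1722) to 1893. CDH5 ran from 423 (median 474) to 507 and from 434 (median 505) to 524. These ranges overlap. CDH1 ran from 86.0 (median 115) to 190.5 and from 78.2 (median 108) to 216, CDH2 from 4678 (median 5332) to 5738 and from 4941 (median 5306) to 5817, and CDH19 from 113 (median 145) to 163 and from 138 (median 165) to 190.0, again with overlap. PCDH15 ran from 201 (median 231) to 245 in Veh and from 184 (median 221) to 231 in sGC, and PCDHGB5 from 580.4 (median 622) to 707 and from 564 (median 633) to 669.

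The sGC effects were then compared between generations for the 25 members in all 3 tables, by limma on the difference of the log2 fold changes. Between F1 and F2 the effect differed for 8 of the 25 members (32%), beside 14.3% of all 11429 genes, and these were also the 8 members with an unadjusted p-value under 0.05, beside 30.4% of all genes. Between F1 and F3 it differed for 6 (24%), beside 17.6% of all genes, with 12 at an unadjusted p-value under 0.05, beside 31.7%. Between F2 and F3 it differed for 0 of 25 (limma), beside 0.157% of all genes, with 5 at an unadjusted p-value under 0.05, beside 14.7%. Each pair of F1 comparisons shares the same F1 animals, so the counts are not independent. Leaving out SGM4 and SGM8 left 5 members for F1 against F2, beside 5.6% of all genes, and 5 for F1 against F3, beside 14.4%. Leaving out SGM20 too left 4, beside 3.36%, and 4, beside 10.9%. With 1 animal left out at a time, CDH1 kept its F1 to F2 call in 9 of 20 fits, CDH2 in 6 of 20, PCDH10 its F1 to F3 call in 14 of 22, PCDH15 its F1 to F2 call in 19 of 20 (lost without SGM8) and PCDH17 its F1 to F3 call in 21 of 22 (lost without Veh replicate SGM15).

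**Figure D5:**
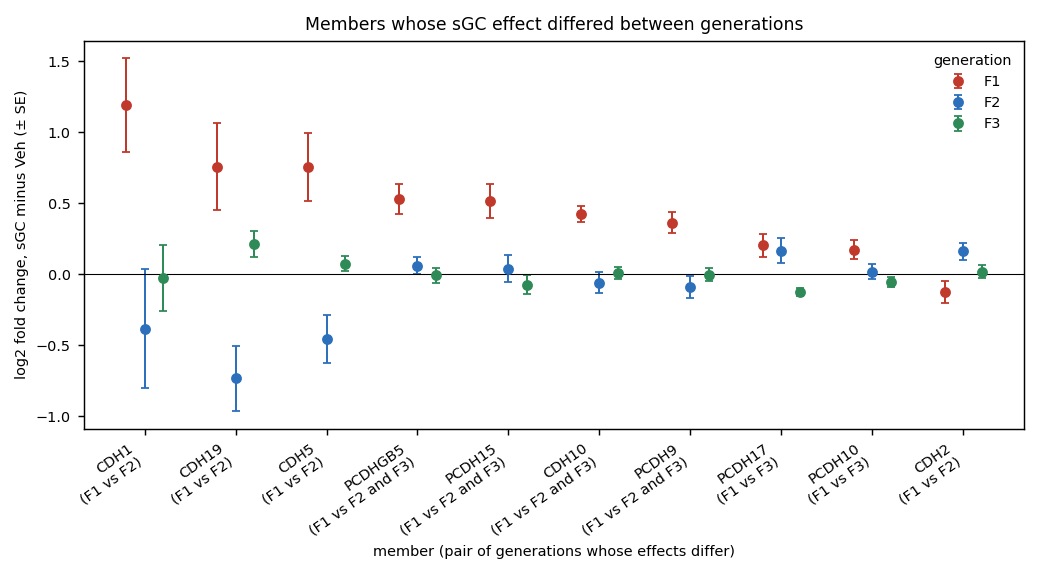
Log2 fold change of sGC against Veh with its standard error (vertical axis) in F1, F2 and F3 for the 10 members whose effect differed between F1 and another generation, named below each gene (horizontal axis). F1 is the highest of the 3 for 9 of the 10 genes and the lowest for CDH2.

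CDH10, PCDH9, PCDH15 and PCDHGB5 differed in both pairs. The F1 effect of CDH10 was larger than that of F2 by 0.49 (limma, adjusted p = 0.000675) and than that of F3 by 0.42 (limma, adjusted p = 0.000671). For PCDHGB5 the differences were 0.47 (limma, adjusted p = 0.00632) and 0.54 (limma, adjusted p = 0.000702). These 2 and PCDH9 (0.45 and 0.37, limma, adjusted p = 0.00472 and 0.00779) kept both calls on the deposited scale and without SGM4 and SGM8. PCDH15 differed by 0.48 and 0.59 (limma, adjusted p = 0.0233 and 0.00274). Its call against F2 was lost without SGM4 and SGM8 (0.33, limma, adjusted p = 0.145). The call against F3 was lost without SGM20 too (0.42, limma, adjusted p = 0.0613).

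CDH1, CDH5 and CDH19 differed between F1 and F2, with fold changes of opposite sign. The difference was 1.57 for CDH1 (limma, adjusted p = 0.0406), 1.21 for CDH5 (limma, adjusted p = 0.00319) and 1.49 for CDH19 (limma, adjusted p = 0.0053). Without SGM4 and SGM8 it was 1.06 for CDH1, which no longer passed (limma, adjusted p = 0.222), 0.85 for CDH5 (limma, adjusted p = 0.0073) and 0.97 for CDH19 (limma, adjusted p = 0.0308). Without SGM20 too, CDH19 no longer passed (1.02, limma, adjusted p = 0.0512). The endothelial and oligodendrocyte markers described above had opposite signs in F1 and F2 too. CDH2 was the member with the lower F1 effect, by -0.28 (limma, adjusted p = 0.0443). It passed neither on the deposited scale (-0.15, limma, adjusted p = 0.533) nor without SGM4 and SGM8 (-0.20, limma, adjusted p = 0.227).

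PCDH17 (0.33, limma, adjusted p = 0.0228) and PCDH10 (0.23, limma, adjusted p = 0.033) differed between F1 and F3 and passed in neither generation alone. PCDH17 had 4744, 5031, 4519, 3913 and 4461 in F1 Veh and 4815, 5487, 6071, 4929 and 4806 in F1 sGC. PCDH10 had 3667, 3346, 3279.8, 2869.9 and 3242 in F1 Veh and 3692, 3977, 3897, 3562 and 3359 in F1 sGC. For both, all 5 F1 sGC animals were above the F1 Veh mean, and the groups overlapped. In F3, PCDH10 ran from 3783 (median 4083) to 4351 in Veh and from 3729.7 (median 3911) to 4211 in sGC. On the deposited scale the differences were 0.39 for PCDH17 and 0.29 for PCDH10, and neither passed (limma, adjusted p = 0.17 and 0.248). Without SGM4 and SGM8 that of PCDH17 passed (0.34, limma, adjusted p = 0.0391) and that of PCDH10 did not (0.19, limma, adjusted p = 0.116). The PCDH10 difference also did not pass in the first F3 batch alone (0.22, limma, adjusted p = 0.0786) or with batch as a covariate (0.22, limma, adjusted p = 0.0722).

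The proteins that work with cadherins were read from lists, whose F1 counts stand beside the 17.3% of all genes that passed. Of 13 catenins and adaptors, 3 passed in F1, MLLT4 (afadin, 0.21, limma, adjusted p = 0.0384) higher, and CTNNA2 (the neuronal alpha-catenin, -0.20, limma, adjusted p = 0.0269) and CTNNBIP1 (an inhibitor of beta-catenin signalling, -0.42, limma, adjusted p = 0.0051) lower. All 13 atypical cadherins outside the symbol rule had a log2 fold change above 0 in F1 (median 0.17, also 13 of 13 on the deposited scale), and FAT1, FAT4 and DCHS1 rose. FAT1 was 2924 to 3049 in F1 Veh and 3605 to 4217 in F1 sGC, with no overlap (0.42, limma, adjusted p = 0.000532). FAT4 was 151 to 191 in Veh and 222 to 419.5 in sGC (0.73, limma, adjusted p = 0.0171), and DCHS1, which pairs with FAT4 in planar polarity, rose as well (0.39, limma, adjusted p = 0.0311). Of 14 cytoplasmic partners of protocadherins 3 passed, the kinases PTK2 (0.19, limma, adjusted p = 0.0184) and PRKCA (0.17, limma, adjusted p = 0.0422) higher, and WASF1 of the actin regulatory WAVE complex (-0.26, limma, adjusted p = 0.024) lower. Of 6 genes of cadherin cleavage 0 passed (limma), with 3 at an unadjusted p-value under 0.05, beside 32.9% of all genes. On the deposited scale these partner genes did not pass, with adjusted p-values of 0.0569 (FAT4) and 0.0636 (FAT1) in limma the lowest. Without SGM4 and SGM8, CTNNBIP1 (limma, adjusted p = 0.0147), FAT1 (limma, adjusted p = 0.00456) and FAT4 (limma, adjusted p = 0.0210) passed. MLLT4, CTNNA2, DCHS1, PTK2, PRKCA and WASF1 did not (limma, adjusted p from 0.0562 to 0.124). Without these animals the log2 fold change was 0.19 for MLLT4, -0.21 for CTNNA2 and 0.42 for DCHS1. It was 0.14 for PTK2, 0.15 for PRKCA and -0.25 for WASF1. CELSR1, DCHS2 and PSEN2 passed there and not in the full comparison, so that 1 of 13 catenins and adaptors, 4 of 13 atypical cadherins, 0 of 14 cytoplasmic partners and 1 of 6 cleavage genes passed, beside 13% of all genes. Without SGM20 too, 1, 6, 0 and 0 passed, beside 8.7% of all genes, and the 6 atypical cadherins were all higher in sGC. DCHS1 was among these 6 (0.53, limma, adjusted p = 0.045).

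In F2 and F3, 0 genes of the 4 partner lists passed (limma). Below an unadjusted p-value of 0.05, F2 had 2 catenins and adaptors, 3 atypical cadherins, 1 cytoplasmic partner and 1 cleavage gene, of 12, 13, 14 and 6 tested, beside 12.8% of all genes. F3 had 1, 1, 4 and 0, of 12, 12, 14 and 6, beside 13.2% of all genes. Of the atypical cadherins 8 of 13 were above 0 in F2 (6 of 13 on the deposited scale) and 5 of 12 in F3.

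The members varied more between animals of a group than genes did in general. The median coefficient of variation of the members was 9.22% in F1 Veh, 11.1% in F1 sGC, 10.5% in F2 Veh, 12% in F2 sGC, 7.13% in F3 Veh and 7.1% in F3 sGC. Over all genes tested it was 6.78%, 9.04%, 9.09%, 8.13%, 5.68% and 5.41%. These medians are descriptions and were not tested. CDH1 had the highest value in F1 sGC (60.3%), F2 Veh (42.8%), F2 sGC (55.7%) and F3 Veh (28.1%). CDH15, expressed in muscle and at low levels here, was highest in F1 Veh (31.6%), and CDH23, also of hair cell tip links, in F3 sGC (51.5%).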

How the data were processed

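RNA-seq of PVN punches covered 32 analysed libraries in 6 groups, each from an animal of a separate litter. The authors aligned reads with TopHat2 (assembly cavPor3), took gene counts from GenomicAlignments 1.6.3, removed outliers by Cook's distance, corrected F3 batches with ComBat (sva 3.18.0) and took RUVSeq 1.4.0 residuals. The deposited values are these normalized counts rounded to whole numbers, treated as a score with no fixed range. Columns of the authors' own edgeR 3.12.1 comparisons (dispersion, fold change, p-value) stand beside them and were not used. The residual step had taken 1 direction out of F1, 1 out of F2 and 2 out of F3.

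Values were divided by median-of-ratios size factors and fitted per generation with limma 3.58.1 in R 4.3.3 (eBayes with trend) on log2(value + 1), leaving out genes whose mean was under 10. Fold changes on this scale understate those of low genes. Tests were two-sided, with Benjamini-Hochberg adjustment over all genes tested and a threshold of 0.05. Over all genes the median log2 value was 0.003 (F1), -0.002 (F2) and 0 (F3) with size factors, and 0.066, -0.076 and -0.002 on the deposited scale. Differences between generations came from the joined tables with 6 group means and 1 shared spread. The fits were also run on simulated counts with 1 spread common to all genes. That simulation held no removed directions and no differences in punch content between animals, so it cannot test the calls against these. Named genes were the members that passed or differed, per generation the 3 with the smallest p-value and the 3 with the largest change, the 2 with the highest Veh mean per subfamily, and up to 3 passing genes per partner list. For the 10 members whose effect differed between generations, F1 and F2 values are given in every animal and F3 values as the lowest, median and highest, and PCDHAC1 in F1 was added after its values were seen. Members, lists and markers were chosen with earlier results of these data known. Alternatives were other scalings, pseudocounts, filters, the removed directions, batch and leaving out animals. The repeat runs of F3 Veh animals were not used here. The number of animals limits the precision, and no count-based interval applies.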

Additional observations from a re-analysis of the deposited data

Results flagged for a closer look

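Single animals stood apart from the rest of their group in 9 of 166 combinations of member and group (5.42%), by Dixon's test at the 95% level, which flags about 1 in 20 groups by chance. In F1 Veh these were CDH22 in SGM7 (807 scaled counts, others 677 to 709.7), PCDH1 in SGM7 (1992, others 2111 to 2162), CDH8 in SGM15 (1402, others 1129 to 1181) and PCDH8 in SGM15 (587, others 736 to 806). In F1 sGC it was PCDHA5 in SGM12 (166, others 120.4 to 132). In F2 Veh it was PCDH10 in SGM22 (3109, others 3378 to 3408), and in F2 sGC PCDH7 (2959, others 2403 to 2461) and PCDH8 (1168, others 804 to 879) in SGM21. In F3 Veh it was PCDH7 in SGM5 (2709, others 3010.3 to 3165). None of these values is of a member that passed in F1.

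The sGC effect differed between generations in 14 cases. Between F1 and F2 the difference of log2 fold changes was 1.57 for CDH1, 0.49 for CDH10, 1.49 for CDH19, -0.28 for CDH2, 1.21 for CDH5, 0.48 for PCDH15, 0.45 for PCDH9 and 0.47 for PCDHGB5. Between F1 and F3 it was 0.42 for CDH10, 0.23 for PCDH10, 0.59 for PCDH15, 0.33 for PCDH17, 0.37 for PCDH9 and 0.54 for PCDHGB5. Of the 10 genes, 4 differed in both pairs.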

How the results depend on the processing

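The number of F1 genes that passed fell from 2058 to 78 on the deposited scale, to 54 with the removed directions as covariates on that scale and to 1345 with the directions and size factors together and to 1031 without SGM4, SGM8 and SGM20. The 6 F1 members became 0 in both fits on the deposited scale. With the directions and size factors together 5 passed, beside the 1345 genes, and CDH1 did not (limma, adjusted p = 0.0532). Members whose effect differed between F1 and F2 went from 8 (14.3% of all genes) to 5 with the removed directions on the deposited scale (3.92% of all genes), with size factors (7.69%), with a separate spread for each generation (5%) and without SGM4 and SGM8 (5.6%), and to 4 without SGM20 too (3.36%). The fits with directions and size factors, with separate spreads and without these animals were chosen after the data were seen. Between F1 and F3 the 6 became 0 with the directions on the deposited scale, beside 1.02% of all genes. In F2, 42 genes passed with quantile normalization. In F3, 11 genes passed without trend, 1 with the directions on either scale, 0 in the first batch alone and 3 with batch as a covariate, in place of 5. Leaving out 1 animal at a time gave 904 (without Veh SGM11) to 2021 genes in F1 (without sGC SGM12). It gave 0 to 2 in F2 and 1 (6 animals) to 17 (without sGC SGM18) in F3. The F1 members ranged from 4, beside those 904 genes, to 8, beside those 2021. Members for F1 against F2 ran from 5 without sGC SGM8, beside 10% of all genes, to 8. For F1 against F3 they ran from 4 (without Veh SGM15) to 8. Beyond the fit without SGM8, shares of all genes were not computed for these differences. Among the 31 fold changes and differences that were followed through all fits, no value changed sign. Other named fold changes did. In F1, CDH2 turned from -0.12 to 0.03 without SGM4, SGM8 and SGM20, and CDH13 from 0.08 to -0.02 without SGM4 and SGM8. CDH8 turned from -0.00 to 0.06 on the deposited scale. PCDH10 in F2 also changed sign, as given above. The cause of these changes was not tested. No paired analysis was made, because neither the sample labels nor the paper describe a pairing of Veh with sGC animals.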
